A study of Mus musculus with 2 samples.

Results

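This account covers the matrix metalloproteinases (MMP), the secreted ADAMTS proteases and the tissue inhibitors of metalloproteinases (TIMP) in primary mouse hepatocytes with and without *Drp1*. The members were found by name, without use of any measured value. All transcript probes whose gene name on the array was *Mmp*, *Timp* or *Adamts* followed by a number were taken. This gave 46 genes of 37074 gene names, with 91 probes of 1 spot each. They were 23 *Mmp* genes with 33 probes, 19 *Adamts* genes with 49 probes and 4 *Timp* genes with 9 probes. Control cells came from *Drp1*flox/flox mice, which the labels list as wild type, and *Drp1*LiKO cells came from Alb-CreTg/+ *Drp1*flox/flox mice, their sibling littermates, on a C57BL/6 background. Both groups therefore carry the floxed *Drp1* allele, and the controls do not carry the albumin promoter-driven Cre that deletes it in hepatocytes. The methods give an age and sex for purchased C57BL/6J mice, but the age and sex of the mice of these arrays, and whether cells of several mice were pooled for an array, are not given in the sources used here. Livers of both groups were dissociated with collagenase, the cells were plated on collagen type I, and RNA was taken 24 h after seeding, with no other treatment. Cy3-labeled RNA was hybridized to 1 array of 60-base probes per genotype, read in 1 color.

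MMPs are zinc-dependent proteases that cut collagens, proteoglycans and many other proteins outside the cell. Most are secreted as inactive precursors, and the membrane-type members stay on the cell surface. ADAMTS proteases, which carry a disintegrin-like domain and thrombospondin repeats, cut proteoglycans such as aggrecan and versican or trim procollagens. TIMPs bind the active site of these proteases and block it, and TIMP3 differs from the others in binding to the matrix and in blocking several ADAM and ADAMTS proteases as well. In the liver, stellate cells, macrophages and endothelial cells are known sources of these proteins, and their balance is known to set how much scar matrix is laid down or removed.

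Since each genotype was measured on 1 array, neither group has a replicate. There is hence no test and no p-value, and a difference below is one between 2 arrays, and their number limits how precisely it is known. The signal of a probe is its background-corrected intensity. Ratios are log2 differences, *Drp1*LiKO minus control, after each array was set to its 75th percentile, a signal of 313 in control cells against 356 in *Drp1*LiKO cells. A gene counts as measured if it had a probe well above background on either array, as was the case for 20165 genes, and a gene with several such probes is given by its brightest one. Where a probe was well above background on 1 array only, the ratio is given as a bound. Its dim side was raised to the lowest signal that passed on that array, 18.2 in control cells against 15.0 in *Drp1*LiKO cells. A dim side already above this floor, as for *Mmp12*, was left as read. Over all measured genes the median log2 ratio was -0.05, and the 5th and the 95th percentile were -0.95 and 1.05. A Z score of 2 across measured probes, the size used below to call a gene higher or lower, lay at a log2 ratio of 1.30 (2.46-fold) for higher and at -1.31 (2.48-fold) for lower. The noise given beside a ratio is the spread between single spots of the 30 probes nearest in signal, among 300 printed 10 times on each array. It leaves out all variation between mice and cultures. Genes dim on both arrays, such as *Mmp9* (27.8 and 34.8) and *Mmp15* (89.0 and 100.4), share 1 noise value, 0.21. For them the noise is hence not specific to the signal and may be too small near background. The targeted gene, listed as *Dnm1l*, had a signal of 2602 in control cells against 1217 in *Drp1*LiKO cells at its brighter probe, a log2 ratio of -1.28, which is 2.43-fold lower and just short of the threshold at a Z score of -1.95. Its other probe, dim at 22.8 and 20.9, gave -0.31 (noise 0.21). The 8 hepatocyte markers examined, among them albumin, were well above background on each array. Their ratios ran from -0.78 to 0.65 around a median of -0.04, and none passed the threshold.

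Of the 46 genes, 24 were measured, and these split into genes higher and lower in *Drp1*LiKO cells with no common direction. The ratio was above 0 for 13 and below 0 for 11, with a median of 0.12 and, among genes seen on both arrays, a range from -1.99 for *Timp2* to 2.84 for *Timp3*. Higher past the threshold were 7 genes, *Timp3*, *Adamts2*, *Mmp12*, *Mmp3*, *Adamts9*, *Adamts4* and *Mmp10*, and lower past it were 2, *Timp2* and *Mmp11*. These are 29.2% of the measured members for higher and 8.33% for lower, beside 3.50% and 2.81% of all measured genes. Of the 7 higher genes, 4 passed through a bound (*Mmp12*, *Mmp3*, *Adamts9* and *Mmp10*), since their control signal was not well above background. A gene enters the measured set if it is bright on either array, so these shares describe the measured members and not all 46. Well above background on both arrays were 18 members, on the *Drp1*LiKO array only 5 (20.8%, beside 9.09% of all measured genes) and on the control array only 1 (4.17%, beside 2.96%). The *Drp1*LiKO array also had more probes above background in all, 52.1% against 48.2% of 56600 probes.

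**Figure D1:**
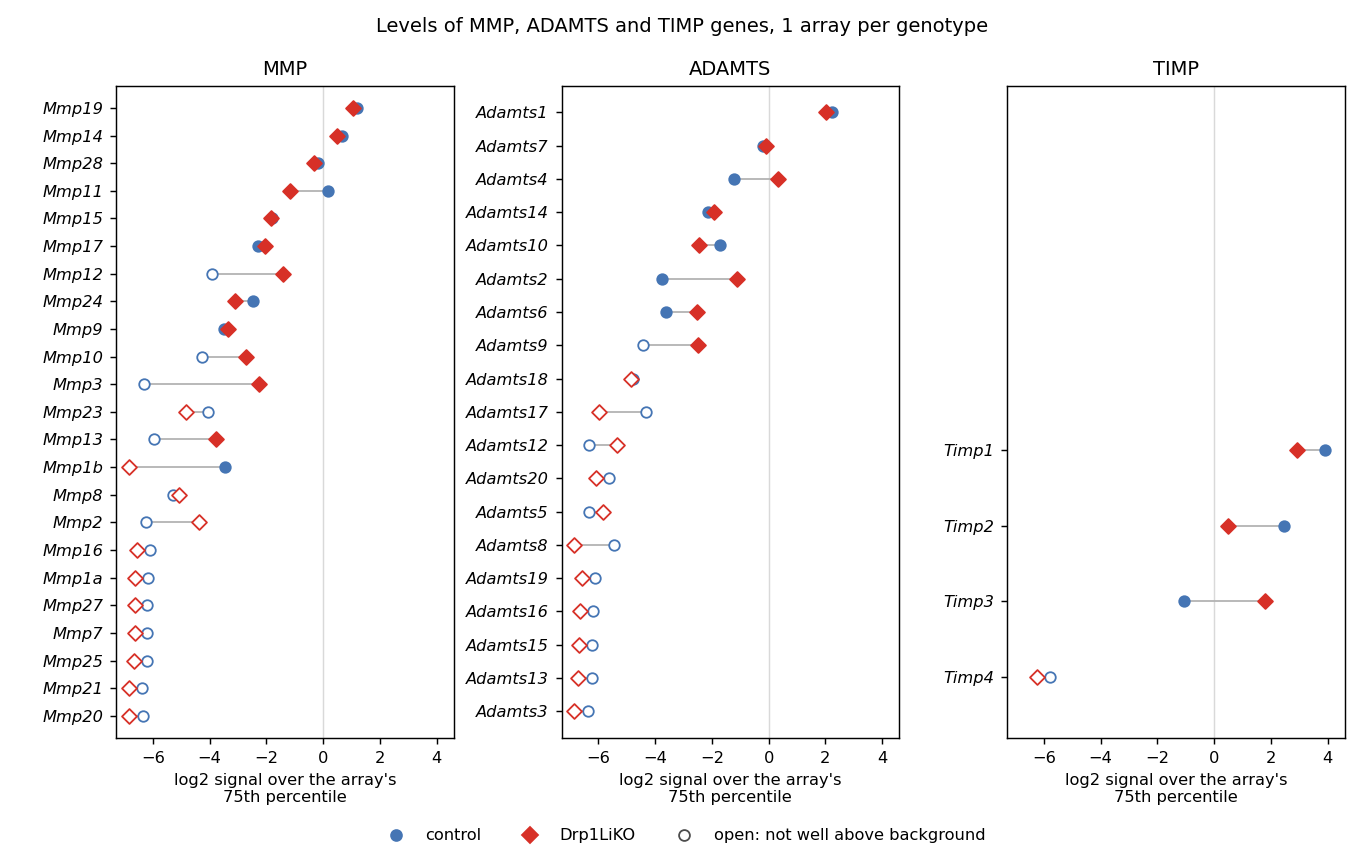
Level of each of the 46 genes on both arrays, as log2 signal relative to the 75th percentile of that array; circles are control, diamonds are *Drp1*LiKO, and open symbols were not well above background. A line joins the values of 1 probe, the brightest measured one or, for genes not measured, the one with the highest signal. *Timp3* and *Adamts2* lay farther right in *Drp1*LiKO cells and *Timp2* and *Mmp11* farther left, while the lower rows, with open symbols only, had no measured level; levels of different genes come from different probes and are not comparable.

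Among the 18 genes well above background on both arrays, the inhibitors held both the highest and the lowest ratio. Genes with a bound could lie beyond them (without a floor *Mmp3* was at 4.07 and *Mmp1b* at -3.38), and in the deposited normalized values *Adamts2*, at 2.39, and *Mmp12*, at 2.72, were above *Timp3*, at 2.21. *Timp3*, the matrix-bound inhibitor, had a signal of 151 in control cells against 1225 in *Drp1*LiKO cells, 7.14-fold higher at a log2 ratio of 2.84 (noise 0.14, Z score 4.36). This probe lies on the plus strand of chromosome 10 of mm9 from 85811696 to 85811755. A second *Timp3* probe, 345 bases downstream and starting at 85812041, gave 134 and 833, a log2 ratio of 2.45. The remaining *Timp3* probe, made to a separate Ensembl transcript at 85769407 to 85769466, was well above background in *Drp1*LiKO cells only, at a signal of 21.3, with a bound of 0.04 that carries no size. The 2 bright probes were thus far above the noise and of one direction. *Timp3* lies within the interval of the synapsin gene *Syn3*, whose own probe had a control signal of 119 and a log2 ratio of 1.30.

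*Timp2*, an inhibitor that also takes part in the activation of pro-MMP2 at the cell surface, moved the other way. Its signal was 1739 in control cells against 496 in *Drp1*LiKO cells, 3.98-fold lower at a log2 ratio of -1.99 (noise 0.12, Z score -3.04). The probe lies on the minus strand of chromosome 11 from 118163146 to 118163205. The other *Timp2* probe, whose ends lie 6778 bases apart on the genome and which therefore crosses a splice junction, gave 871 and 244, a log2 ratio of -2.02. Both probes differed by 0.03 on the log2 scale, less than the noise. *Timp1*, the secreted inhibitor induced by many cytokines, had a signal of 4665 in control cells against 2703 in *Drp1*LiKO cells, 1.96-fold lower at -0.97 (noise 0.08, Z score -1.47). It stayed short of the threshold but passed it after normexp background correction. *Timp4* was not well above background with any of its 3 probes. The 3 measured inhibitors thus differed in direction, and their median of -0.97 is the value of *Timp1*.

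The starts of *Timp3* and *Timp2*, the inhibitor genes past the threshold in opposite directions, are shown to set them beside those of the clustered *Mmp* genes given further on. Both are from the RefSeq promoter table (GRCm38.p6), 120 bases up to the base before the gene start, 5′ to 3′ in the direction of the gene, with each CpG in capitals. The *Timp3* window is chr10:86300292-86300411 on the plus strand and holds 13 CpG, and the *Timp2* window is chr11:118355412-118355531 on the minus strand and holds 11.
Timp3: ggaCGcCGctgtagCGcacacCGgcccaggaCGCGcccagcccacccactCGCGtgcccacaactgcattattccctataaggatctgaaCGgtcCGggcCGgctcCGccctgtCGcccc
Timp2: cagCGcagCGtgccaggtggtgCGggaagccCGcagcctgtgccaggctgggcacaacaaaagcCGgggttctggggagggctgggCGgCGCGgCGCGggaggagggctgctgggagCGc
Over the 250 bases before the start, *Timp3* had 18 CpG and *Timp2* 21, and *Timp1* had 6, against a median of 6 over all windows of the table. Both genes thus start in CpG-rich sequence although their ratios had opposite signs. The windows are a description of the starts, and no measurement here bears on methylation.

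**Figure D2:**
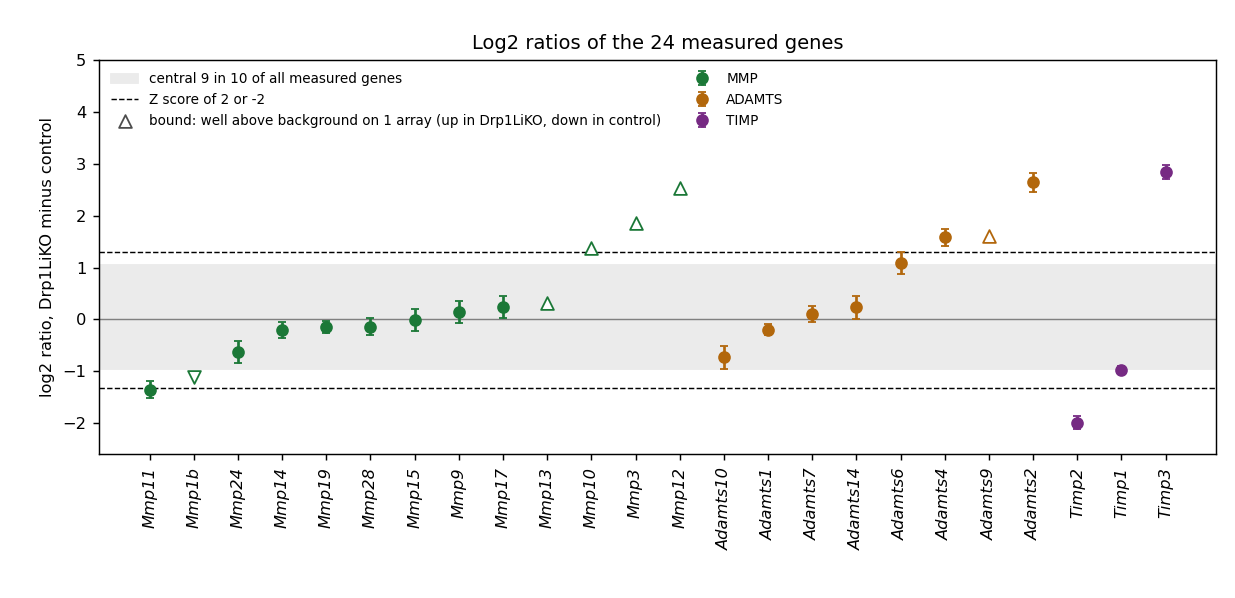
Log2 ratio, *Drp1*LiKO minus control, of the 24 measured genes, ordered by value within each family. Filled points are genes clear of the background on each array, with bars of 1 SD of the spot noise on either side; open triangles are bounds, pointing up for *Drp1*LiKO only and down for control only. The grey band spans the 5th to 95th percentile of all 20165 measured genes and the dashed lines mark Z scores of 2 and -2, past which 7 genes lay above and 2 below.

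Of the 23 *Mmp* genes 13 were measured, 8 on both arrays, and their median log2 ratio was -0.01. All 3 that were higher past the threshold were detected on the *Drp1*LiKO array only, and 1 was lower. *Mmp12*, macrophage metalloelastase, had a signal of 20.6 in control cells, not well above background, and 135 in *Drp1*LiKO cells. It was 5.75-fold higher (log2 ratio 2.52) with this control signal as read, since it lay above the floor. Its second measured probe gave 12.8 and 32.3, a bound of 1.56-fold, and its remaining probe, at 4.21 and 14.1, was not measured. *Mmp3*, stromelysin-1, which cuts many matrix proteins and activates other MMPs, had 3.94 and 75.2, at least 3.64-fold higher. *Mmp10*, stromelysin-2, had 16.3 and 53.7, at least 2.60-fold higher. *Mmp3* and *Mmp10* each rest on 1 probe. *Mmp11*, also called stromelysin-3 although its substrates differ from those of the others and it is activated inside the cell by furin, was lower, with a signal of 354 in control cells against 157 in *Drp1*LiKO cells. This is 2.56-fold lower at a log2 ratio of -1.36 (noise 0.16, Z score -2.07), and the ratio fell short of the threshold in the deposited normalized values and without a floor. Among the 4 genes grouped as stromelysins and matrilysin, then, 2 were higher, 1 was lower, and *Mmp7*, matrilysin, was not measured.

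The collagenases, which cut fibrillar collagen, were near background. *Mmp13*, the main interstitial collagenase of rodents, had a signal of 5.08 in control cells against 25.7 in *Drp1*LiKO cells, at least 1.24-fold higher and short of the threshold. *Mmp1b* was the member seen on the control array only, with 28.6 and 3.12, at least 2.16-fold lower, also short of it. Its other probe was not measured, so this signal rests on 1 probe, and whether that probe also binds transcripts of its neighbor *Mmp1a* was not tested. *Mmp8*, the neutrophil collagenase, and *Mmp1a* were not measured. Of the gelatinases, which cut denatured collagen and basement membrane, *Mmp9* had 27.8 and 34.8 (log2 ratio 0.14, noise 0.21), and its sign turned with normexp background correction and in the deposited normalized values. *Mmp2* was not well above background, at 4.12 in control cells against 17.0 in *Drp1*LiKO cells.

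The membrane-type MMPs and the remaining members seen on both arrays stayed inside the range of most genes. *Mmp14*, the membrane-type protease that activates pro-MMP2, had a signal of 503 in control cells against 495 in *Drp1*LiKO cells (log2 ratio -0.21, noise 0.15). *Mmp15* had 89.0 and 100.4 (-0.01), *Mmp17*, which is held by a lipid anchor, had 63.8 and 85.5 (0.24), and *Mmp24* had 55.9 and 41.1 (-0.63, noise 0.21). *Mmp16* and *Mmp25* were not measured. *Mmp19*, a broadly expressed member, had 722 and 740 (-0.15), with -0.26 at its second probe, and *Mmp28*, epilysin, had 280 and 288 (-0.14). Of the 8 *Mmp* genes seen on both arrays, *Mmp11* was the one past the threshold, and the 3 *Mmp* genes higher past it had no clear control signal.

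All 4 *Mmp* genes seen on the *Drp1*LiKO array only lie in the *Mmp* cluster of chromosome 9. In mm9 the probes of its 10 genes span 416.774 kb, from 7282762 to 7699535, in the order *Mmp13*, *Mmp12*, *Mmp1b*, *Mmp3*, *Mmp1a*, *Mmp10*, *Mmp8*, *Mmp27*, *Mmp20* and *Mmp7*. In this stretch 4 genes (*Mmp13*, *Mmp12*, *Mmp3* and *Mmp10*) were well above background in *Drp1*LiKO cells only, *Mmp1b* in control cells only, and the other 5 on neither array. No gene of the cluster was well above background on both arrays, against 18 of the 36 other members and 17735 of all 37074 gene names. For the *Drp1*LiKO array only, the 4 of 10 clustered genes stand beside 1834 of the 37074 names. The 4 genes do not form an unbroken run, since *Mmp1b* and *Mmp1a* lie among them.

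**Figure D3:**
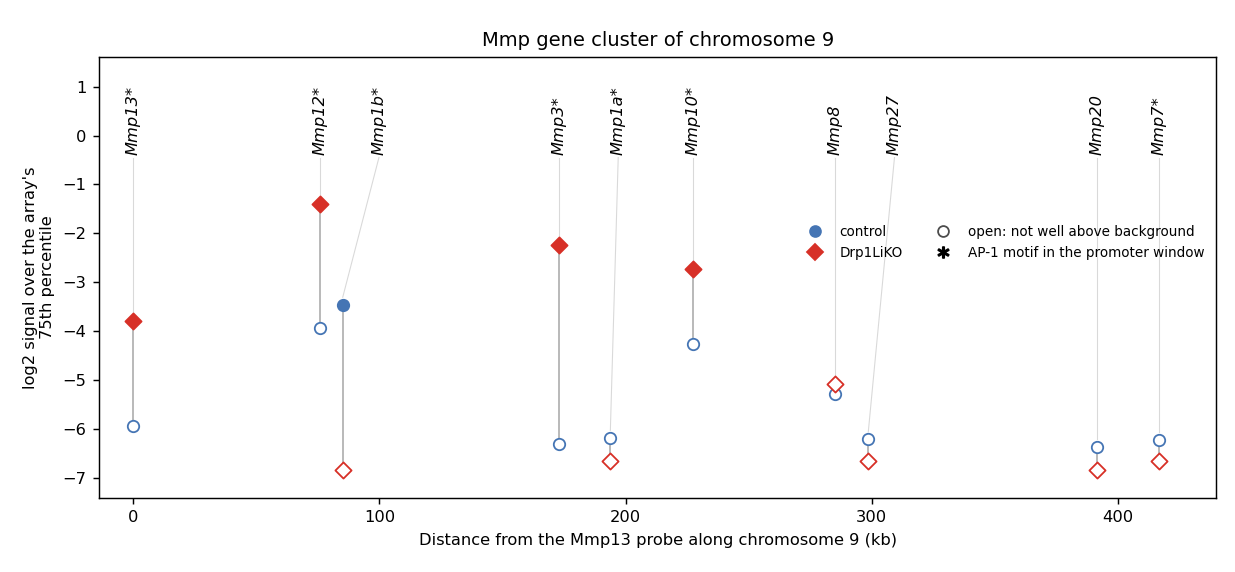
Level of the 10 clustered *Mmp* genes against the distance of their probe from the *Mmp13* probe on chromosome 9, in kb, as log2 signal over the 75th percentile of each array. Circles are control, diamonds are *Drp1*LiKO, open symbols were not well above background, and an asterisk marks an AP-1 motif in the promoter window. Filled diamonds stand at *Mmp13*, *Mmp12*, *Mmp3* and *Mmp10*, and the single filled circle at *Mmp1b*.

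The proximal promoters of these MMPs are known for a binding site of AP-1, the Fos and Jun dimer, just before the gene start. The letters TGAGTCA, which read TGACTCA on the other strand, were searched on both strands from 250 bases before to 50 bases after each start in the RefSeq table (GRCm38.p6). The table held 32 of the 46 members. The letters stood in 7 of these 32 genes, all of them in the cluster (*Mmp13*, *Mmp12*, *Mmp1b*, *Mmp3*, *Mmp1a*, *Mmp10* and *Mmp7*), and in none of the 22 others, against 5.95% of 27025 genes and 5.20% of windows. For the 5 clustered genes with a measured signal, the 120 bases before the start are given 5′ to 3′ in the direction of the gene with AP-1 in capitals, so that its place can be compared. The windows are chr9:7272394-7272513 for *Mmp13*, chr9:7347254-7347373 for *Mmp12*, chr9:7445702-7445821 for *Mmp3* and chr9:7502222-7502341 for *Mmp10*, all on the plus strand, and chr9:7388027-7388146 on the minus strand for *Mmp1b*.
Mmp13: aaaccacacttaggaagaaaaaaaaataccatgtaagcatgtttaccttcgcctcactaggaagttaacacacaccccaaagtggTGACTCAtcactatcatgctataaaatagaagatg
Mmp12: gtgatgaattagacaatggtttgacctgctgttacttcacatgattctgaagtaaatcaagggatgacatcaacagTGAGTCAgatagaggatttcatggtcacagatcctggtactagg
Mmp3: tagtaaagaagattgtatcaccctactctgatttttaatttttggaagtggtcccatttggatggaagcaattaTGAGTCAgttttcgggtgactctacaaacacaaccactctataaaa
Mmp10: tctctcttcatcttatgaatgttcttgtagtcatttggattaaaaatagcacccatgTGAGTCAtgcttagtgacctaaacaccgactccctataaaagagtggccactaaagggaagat
Mmp1b: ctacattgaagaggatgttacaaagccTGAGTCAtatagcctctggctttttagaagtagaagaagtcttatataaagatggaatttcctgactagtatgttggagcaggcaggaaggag
The first base of the motif lay 35 bases before the start in *Mmp13*, 44 in *Mmp12* (at 1 of its 2 listed starts), 46 in *Mmp3*, 63 in *Mmp10* and 93 in *Mmp1b*. The motif was thus shared by the 4 genes seen in *Drp1*LiKO cells only, by *Mmp1b*, seen in control cells only, and by *Mmp1a* and *Mmp7*, seen in neither. In contrast to *Timp2* and *Timp3*, these 5 genes had 0 to 2 CpG in the 250 bases before the start. The letters AGGAAG or CTTCCT of the PEA3 motif were found in 7 of the 10 clustered genes and 15 of the 32 members, beside 38.4% of all genes. The STAT motif TTCNNNGAA was found in 1 of the 32 and the NF-κB motif in 5, beside 9.55% of all genes each. A match of letters is not evidence of binding, and no factor was measured here.

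The ADAMTS family had the highest median of the 3, 0.66 over 8 measured genes of 19, but this value moved to between 0.20 and 0.35 with normexp correction, with genes measured on both arrays or with the median of the probes of a gene. *Adamts2*, the main procollagen N-propeptidase, which trims fibrillar procollagens before they assemble, had a signal of 23.4 in control cells against 166 in *Drp1*LiKO cells, 6.24-fold higher at a log2 ratio of 2.64 (noise 0.19, Z score 4.06). The probe lies on chromosome 11 of mm9 from 50617472 to 50617531 on the plus strand, and the other 2 *Adamts2* probes were not measured. *Adamts14*, of the same group, had 71.1 and 94.7 (0.23, noise 0.21). Its second probe, well above background in *Drp1*LiKO cells only, gave no fold. *Adamts3*, the remaining procollagen N-propeptidase, was not measured.

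Among the proteoglycanases, *Adamts4*, known as aggrecanase-1, had a signal of 133 in control cells against 452 in *Drp1*LiKO cells, 2.99-fold higher at a log2 ratio of 1.58 (noise 0.16, Z score 2.43). Its second probe gave 28.7 and 81.4 (1.32), and the last, seen in *Drp1*LiKO cells only, gave 14.9 and 28.4, a bound of 0.46. In the deposited normalized values and without a floor, the ratio of *Adamts4* fell short of the threshold. *Adamts9*, a versican-cleaving protease, had 14.7, not well above background, and 62.9, at least 3.04-fold higher, by 1 of its 4 probes. *Adamts1*, also a versican-cleaving protease, was clear on both arrays and close between them, at 1469 and 1457 (-0.19, noise 0.10). Aggrecanase-2, *Adamts5*, and *Adamts8*, *Adamts15* and *Adamts20* were not measured.

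Of the other ADAMTS genes, *Adamts6* had a signal of 25.5 in control cells against 61.4 in *Drp1*LiKO cells, 2.12-fold higher at 1.09 (noise 0.21), short of the threshold. Its 2 other probes gave 0.60 and 0.37, so that all were above 0 and differed in size. *Adamts7*, which cuts cartilage oligomeric matrix protein, had 274 and 335 (0.11, noise 0.16). *Adamts10*, known for its binding to fibrillin microfibrils, had 95.0 and 64.9 (-0.73, noise 0.21) at 1 of its 5 probes. *Adamts13*, the protease of von Willebrand factor, was not measured, nor were *Adamts12*, *Adamts16*, *Adamts17*, *Adamts18* and *Adamts19*.

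**Figure D4:**
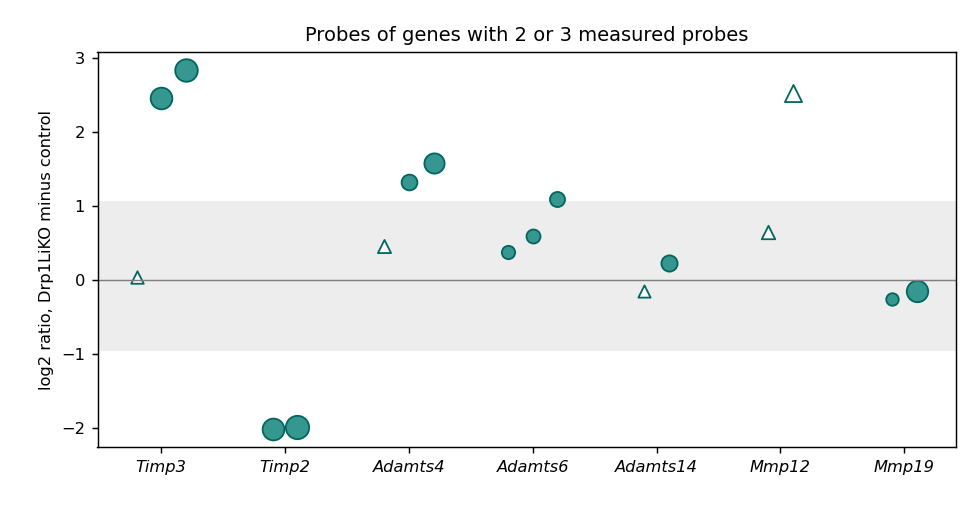
Log2 ratio of each measured probe for the 7 genes with 2 or 3 measured probes. Circles were well above background on both arrays, triangles are bounds from probes seen on the *Drp1*LiKO array only, and symbol size grows with the higher of both signals; the grey band spans the 5th to 95th percentile of all measured genes. The 2 *Timp2* probes coincide near -2, the bright *Timp3* probes lie above 2.4, and *Mmp12* and *Timp3* have a dim probe far below the bright one.

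Of the 46 genes, 22 were not well above background on either array with any probe. They were the 11 *Adamts* genes named as not measured, 10 *Mmp* genes (*Mmp1a*, *Mmp2*, *Mmp7*, *Mmp8*, *Mmp16*, *Mmp20*, *Mmp21*, *Mmp23*, *Mmp25* and *Mmp27*) and *Timp4*. Their highest signals were 18.9 in control cells, for *Mmp23*, and 17.0 in *Drp1*LiKO cells, for *Mmp2*. At this depth of signal a difference in these genes was not detectable.

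Genes that activate or restrain these proteases were taken as a further list of 15, of which 12 were measured with a median log2 ratio of -0.14. *Plau*, urokinase, which makes the plasmin that activates several pro-MMPs, had a signal of 167 in control cells against 505 in *Drp1*LiKO cells (log2 ratio 1.41), past the threshold. *Plat*, tissue plasminogen activator, went the other way, with 747 and 229 (-1.89), also past it. *Lcn2*, lipocalin 2, which binds MMP9, had 7165 and 26508 (1.70). The urokinase receptor gene *Plaur* had -0.58, and *Furin*, which activates membrane-type MMPs and MMP11, had -0.11. *Reck*, a membrane-anchored MMP inhibitor, had 0.19 and *Bsg*, basigin, 0.14. The 2 plasminogen activators thus differed in direction, as did *Timp2* and *Timp3*. In the ADAM family, the membrane-bound relatives that shed surface proteins and include the TIMP3 target *Adam17*, 8 of 10 genes were measured and none passed the threshold. *Adam17* had -0.01, *Adam19* had the highest ratio, 1.01, and *Adam8* the lowest, -0.79. Of 7 ADAMTS-like genes, which lack the protease domain, 4 were measured, with a median of -0.24 and none past the threshold.

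Of 12 matrix genes listed as substrates of these proteases, 10 were measured and 4 were higher past the threshold, beside 3.50% of all measured genes. The ratio was above 0 for 9 of the 10, beside 44.5% of all measured genes, with a median of 0.83. Decorin, *Dcn*, had a signal of 203 in control cells against 3848 in *Drp1*LiKO cells (log2 ratio 4.06), and *Col1a2*, a chain of type I collagen and a substrate of ADAMTS2, had 110 and 953 (2.93). *Col3a1*, also trimmed by ADAMTS2, had 13.5 and 182, a log2 ratio of at least 3.13, and lumican, *Lum*, at least 2.07. The other chain of type I collagen, *Col1a1*, had 147 and 343 (1.04), short of the threshold. The basement membrane chain *Col4a2* had 0.06, fibronectin, *Fn1*, 0.01, and the ADAMTS substrate versican, *Vcan*, -0.23.

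Markers of macrophages, endothelial cells and stellate cells had higher ratios than most genes, while those of the other cell types examined had few or none past the threshold. The shares to read these counts against are 3.50% of all measured genes higher past the threshold and 44.5% above 0. Markers of Kupffer cells and macrophages were measured for 10 of 12 genes, all 10 with a ratio above 0 and 9 past the threshold, with a median of 2.42. Their summed level, in units of the 75th percentile of the array, was 14.6 in control cells against 55.0 in *Drp1*LiKO cells, and *Timd4* and *Cd163* were not well above background. The ratios of *Clec4f* and *Vsig4*, seen on the *Drp1*LiKO array only, were bounds. The 9 endothelial markers were all measured and above 0, 6 past the threshold, with a median of 1.66 and a summed level of 13.7 and 25.3, which without *Egfl7* was 1.65 and 5.77. Among them *Lyve1* and *Tie1* were bounds, again seen on the *Drp1*LiKO array only. Of 12 markers of stellate cells and fibroblasts, 4 of which (*Col1a1*, *Col3a1*, *Dcn* and *Lum*) are also in the matrix list, 9 were measured, 8 were above 0 and 4 past the threshold, with a median of 1.04 and a summed level of 69.9 and 82.4. *Acta2* alone made up 68.4 and 69.3 of this sum, and the other markers summed to 1.51 and 13.1. In this list *Lrat*, *Hand2* and *Ngfr* were not well above background, and *Pdgfrb* was at least at 1.86. Of its 9 measured markers 5 were bounds, seen on the *Drp1*LiKO array only, among them *Col3a1*, *Lum* and *Pdgfrb*, which passed the threshold. For *Des*, with a signal of 6.47 in control cells against 18.5 in *Drp1*LiKO cells, the sign of the ratio, -0.16, was set by the floor. Cholangiocyte markers had none past the threshold in 4 measured of 5, with a median of 0.09, a summed level of 93.8 and 70.0, and *Epcam* not well above background. Of 7 neutrophil markers 3 were measured, 1 (*Ly6g*) was past the threshold, *S100a8*, *S100a9*, *Cxcr2* and *Ltf* were not well above background, and the summed level was 2.15 and 2.05. *Elane*, with a ratio of -0.21, made up 2.03 and 1.75 of this sum. *Ly6g* and *Camp*, both bounds seen on the *Drp1*LiKO array only, summed to 0.12 and 0.30. Mesothelial markers had 2 of 4 measured, both above 0, *Msln* at 1.26, just short of the threshold, and *Wt1*, dim in control cells, at 0.32. T and NK cell markers had 1 of the 5 on the array measured, *Cd3e* at -0.37. None of these was past the threshold. The preparation is meant to deplete such cells, since hepatocytes were pelleted at low speed, the supernatant with the non-parenchymal cells was taken off, and unattached cells were discarded with the medium. The study also reported more macrophages in *Drp1*LiKO than in control livers, and a lower yield and viability of *Drp1*LiKO hepatocytes at isolation. In such bulk RNA a larger number of cells of a type and more RNA per cell cannot be told apart, and the part of these cell types in the ratios of *Timp3*, *Adamts2*, *Adamts4*, *Adamts9* and the clustered *Mmp* genes was not tested.

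**Figure D5:**
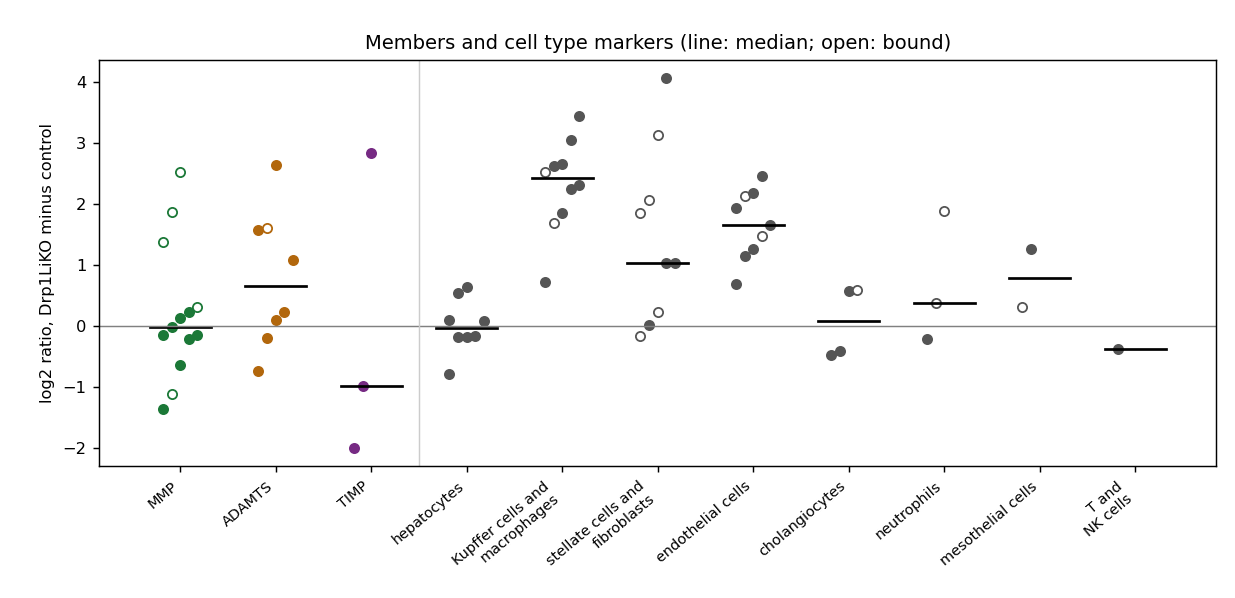
Log2 ratios, *Drp1*LiKO minus control, of the measured members by family (left of the vertical line) and of the measured markers of 8 cell types (right). Each point is a gene, open points are bounds, and the black line is the median. The macrophage, endothelial and stellate cell medians of 2.42, 1.66 and 1.04 lie above the family medians of -0.01 for MMP, 0.66 for ADAMTS and -0.97 for TIMP, and the hepatocyte median of -0.04 lies near 0.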

How the data were processed

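RNA of control and *Drp1*LiKO primary hepatocytes was measured on 1 Agilent array per genotype, both on the same slide. The authors deposited the Feature Extraction output of each array (version 9.5.1.1 per the labels and 10.7.1.1 per the file headers), in which the processed signal of each spot is an intensity on a linear scale, corrected for background and not normalized between arrays. They also deposited a table of normalized intensities. Its values are linear levels per array, with a column median of 19.1 for both groups. Sorted by size, the values of both columns differed by at most 0.34%, so the columns have nearly the same distribution. Taken across probes, which are not replicates, the rank correlation between this table and the scanner signals was 1.00 for control and 0.958 for *Drp1*LiKO. The *Drp1*LiKO column thus does not keep the probe order of the array it is named for. How it was made, and whether from the same scan, is not given in the sources used here, so it served only as an alternative, and a call that changes in it carries this doubt.

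Control spots and spots marked as outliers (71 in control, 63 in *Drp1*LiKO) were dropped. Each probe was given the mean log2 signal of its spots, minus the 75th percentile of its array. No spot was saturated. The 30275 probes that were well above background on either array were kept, dim signals were raised to the lowest signal well above background on that array, and Z scores were taken over these probes, since the study names a Z score threshold of 2 without its reference population. A fold change of a dim probe is therefore a bound. A gene was its brightest measured probe.

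Every member was named, with values where it was measured. Genes of the further lists were named as examples after their values were seen. For 1 gene in those lists no result is reported here. The members and the gene lists were chosen with earlier results of these data known. No test was possible with 1 array per genotype. Gene names and mm9 coordinates are those of the files, and all 46 member names were found among the RefSeq genes of GRCm38.p6. The position of probes in exons or untranslated regions was not analysed here. Promoter windows came from RefSeq (GRCm38.p6), and no coordinate was moved between builds.

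Alternatives tried were quantile normalization, normexp background correction (offset 50), the spike-in probes as the scale, the deposited table, probes well above background on both arrays, no filter, no floor, outlier spots kept, the median of the probes of a gene, a robust Z score and a log2 threshold of 1. The steps were tested on simulated data, with known changes put only into genes bright in control cells. The test hence does not cover genes dim in control cells, such as *Adamts2* and the higher genes given as bounds. The tools were R 4.3.3 (limma 3.58.1) and Python 3.11.15 (pandas 2.3.3, numpy 2.4.6, matplotlib 3.10.9, scipy 1.17.1).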

Additional observations from a re-analysis of the deposited data

How the results depend on the processing

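No paired analysis was possible because each genotype has 1 array. For the same reason no replicate could be left out. Of 210 recomputed log2 ratios of the 24 measured genes, 192 kept their side of the threshold without a change of sign beyond a tolerance of 0.16. Among these, *Mmp15*, at -0.01, turned to 0.03 with spike-in scaling and to 0.15 in the deposited values. Of the rest, 10 fell short of the threshold, 5 came to pass it, and 3 of genes short of it changed sign by more than the tolerance. No ratio of a gene past the threshold changed sign. *Timp3* stayed between 2.21 and 2.88, *Timp2* between -2.22 and -1.85, and *Adamts2* and *Mmp12* past the threshold, between 1.26 and 2.68 and between 1.02 and 2.72. Calls were lost for *Adamts9* and *Mmp3* with normexp correction, for *Mmp3*, *Adamts4* and *Mmp11* in the deposited values, for *Adamts4* and *Mmp11* without a floor, and for *Mmp10* under all 3. Calls were gained for *Timp1* (normexp), *Adamts6* (deposited values and no filter), and *Mmp13* and *Mmp1b* (no floor). The 2 other cuts leave the ratios as they are. The robust Z score added *Adamts6* as higher and *Mmp1b* and *Timp1* as lower, and the log2 threshold of 1 added *Adamts6* and *Mmp1b*.

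The count of 7 higher genes was 4 with normexp correction and 3 with genes well above background on both arrays, which leaves out the 4 bounds by construction. The count of 2 lower genes was 1 in the deposited values and 4 by the robust Z score. The median of all measured members, 0.12, was -0.03 with normexp correction, -0.074 with genes measured on both arrays and -0.47 with no filter. The ADAMTS median was 0.20 with normexp correction, 0.23 with genes measured on both arrays, 0.35 with the median of probes and -0.47 with no filter, and with no filter the MMP median was -0.47 and the TIMP median -0.72. With no filter, a gene at the floor on both arrays takes the difference of the floors as its ratio, and the median of all genes is -0.47 as well. In the deposited values, whose *Drp1*LiKO column does not keep the probe order of its array, *Mmp12* (2.72) and *Adamts2* (2.39) lay above *Timp3* (2.21). The cause of the other shifts was not tested. Background limits the 22 genes not measured and the size of every bound.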
